A study of Homo sapiens with 4 samples.

Results

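The subunits of the respiratory chain and of ATP synthase are encoded by both the mitochondrial and the nuclear genome, and their RNAs were compared in Reh-6-MPR cells. Members were taken from the deposited expression table by symbol. A protein-coding gene was a member when its symbol began with MT-, with UQCR or with ATP5, was SDHA, SDHB, SDHC or SDHD, or began with NDUF or COX followed by the letters or digits used for complex I and complex IV subunits. The rule gave 99 of the 29833 genes in the table, 13 mitochondrially encoded and 86 nuclear-encoded, and it used no measured value. Of these, 88 averaged 1 FPKM or more across libraries, all 13 mitochondrial genes and 75 nuclear genes. They are the genes counted in comparisons, beside 12750 genes of all kinds that met the same minimum. FPKM is a level per length, namely reads scaled to the length of the gene and to the reads of the library.

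Reh is an established human B-cell precursor acute lymphoblastic leukemia (B-ALL) line, and Reh-6-MPR is 1 derivative of it, selected by stepwise exposure to 6-mercaptopurine (6-MP) and therefore 6-MP resistant in all 4 groups. Cells received PBS (the vehicle, labelled Blank), 4 mM histidine (labelled His), 1.0 μg/mL 6-MP, or both agents together at these doses, each for 48 h, and 1 library was made per group with a stranded poly(A) kit. The comparisons ask what each agent alone and the combination did to the RNA of resistant cells. With 1 library per group there is no replicate check and no test, and every difference below is between libraries. In a bulk sample, fewer cells of a type and less RNA per cell cannot be told apart.

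The respiratory chain passes electrons from NADH and succinate to oxygen through complexes I, II, III and IV, and the proton gradient it builds drives ATP synthase, complex V. Complex II is encoded wholly in the nucleus, whereas the other complexes join nuclear-encoded subunits to subunits made in the mitochondrion from its own DNA. Mitochondrial genes are transcribed from both strands as long RNAs, which are cut at the transfer RNAs into ribosomal RNAs and mRNAs by proteins that the nucleus encodes.

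The libraries held between 12899122 reads (histidine + 6-MP) and 15486376 reads (histidine), as recovered from the steps of the FPKM values. Of 10 B-lineage markers, 9 were in the table and all were above 0 in every library, with summed FPKM between 1239 and 1313. Of 4 T cell markers, 0 were in the table, and of 4 erythroid markers, 2 were in the table, both at 0 in 3 libraries. The 3 of 5 myeloid markers in the table summed to 28.7 FPKM in vehicle, 31.1 in histidine, 27.0 in 6-MP and 43.6 in histidine + 6-MP, mostly MPO, so they were highest in the library that also stood apart for the subunits. Their part in the results was not tested. Across all genes of the minimum level, the median log2 difference from vehicle was 0.01 for histidine, 0.0039 for 6-MP and 0.13 for histidine + 6-MP, and the differences below are read against that shift. Median-ratio scaling of the libraries, an alternative to FPKM as deposited, moved the last median to -0.07. Directions that turned under it are named with the subunits and the listed genes. Mitochondrial ribosomal and transfer RNAs, pseudogenes and markers were not rescaled gene by gene.

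The mitochondrially encoded subunits were lower in the histidine + 6-MP library than in each of the other 3 libraries. All 13 genes showed this, against 28.8% of all genes tested, and 10 of 13 did so by a log2 difference of at least 0.5, against 4.53%. On the scale of log2(FPKM + 1), their median difference from vehicle was -0.78, with a range from -2.04 to -0.48. Of the 13, 3 were lower by at least 1, against 1.51% of all genes tested (7 of 13, against 337 of 12750 genes, under median-ratio scaling), and 12 were lower by at least 0.5, against 7.37%. MT-CO1, at -0.48, was the exception at the threshold of 0.5. Of all members 0 were higher by at least 1, where 5.01% of all genes tested were.

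In complex I, the mitochondrial genome encodes 7 core subunits of the membrane arm that pumps protons. MT-ND2 was at 1358 FPKM in vehicle, 1290.3 in histidine, 1163 in 6-MP and 719 in histidine + 6-MP. MT-ND4L was at 1238 FPKM in vehicle, 1108 in histidine, 1117 in 6-MP and 682 in histidine + 6-MP. MT-ND1 was at 1541 FPKM in vehicle, 1518 in histidine, 1436 in 6-MP and 1041 in histidine + 6-MP. For each gene the 3 other libraries lay close together and the combined library lay well below them. MT-ND6, the only subunit gene read from the opposite strand of the mitochondrial DNA, was at 638 FPKM in vehicle, 637 in histidine, 601 in 6-MP and 429 in histidine + 6-MP. Against vehicle, the log2 differences in the combined library were -0.92 for MT-ND2, -0.86 for MT-ND4L, -0.78 for MT-ND3, -0.73 for MT-ND5, -0.71 for MT-ND4, -0.57 for MT-ND6 and -0.57 for MT-ND1. The gene on the opposite strand was thus within the range of the other complex I genes.

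MT-CYB encodes cytochrome b, the catalytic membrane subunit of complex III. It was at 1635 FPKM in vehicle, 1533 in histidine, 1559 in 6-MP and 866 in histidine + 6-MP, a log2 difference of -0.92 from vehicle. In complex IV, MT-CO1, MT-CO2 and MT-CO3 encode the core of cytochrome c oxidase, including all of its redox centers. MT-CO1 was the most abundant member per length, at 6448 FPKM in vehicle, 6174 in histidine, 5957 in 6-MP and 4610.3 in histidine + 6-MP. MT-CO2 was at 4425 FPKM in vehicle, 3981 in histidine, 3987 in 6-MP and 2652 in histidine + 6-MP. MT-CO3 was at 4672 FPKM in vehicle, 4205 in histidine, 4288 in 6-MP and 2277 in histidine + 6-MP. The 3 genes of complex IV were lower to different extents, with log2 differences from vehicle of -0.48, -0.74 and -1.04. The read ratio of MT-CO1 had a 95% interval from -0.50 to -0.47 on the log2 scale and that of MT-CO3 from -1.06 to -1.01. These intervals do not overlap, but they cover counting error only and compare 2 libraries.

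**Figure D1:**
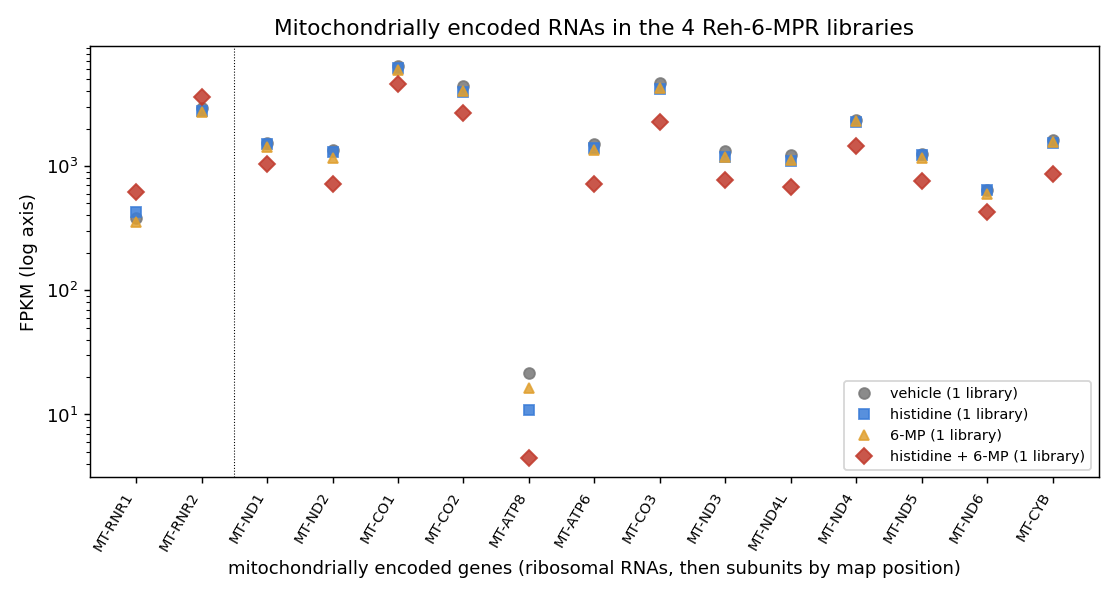
FPKM (log axis) of the 2 mitochondrial ribosomal RNAs and the 13 mitochondrially encoded subunits in map order, with 1 point per library. The diamonds of histidine + 6-MP lie below the other 3 libraries for every subunit and above them for both ribosomal RNAs.

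The pair MT-ATP8 and MT-ATP6, which encode membrane subunits of ATP synthase, showed the largest differences. MT-ATP6 was at 1499 FPKM in vehicle, 1386 in histidine, 1341 in 6-MP and 715 in histidine + 6-MP, which is 47.7% of vehicle and a log2 difference of -1.07. MT-ATP8 was far lower in all libraries, at 21.6 FPKM in vehicle, 10.9 in histidine, 16.4 in 6-MP and 4.49 in histidine + 6-MP, a log2 difference of -2.04. These FPKM stand for 64, 35, 52 and 12 reads, and the log2 read ratio of the combined library to vehicle was -2.26 with a 95% interval from -3.29 to -1.36. The reading frames of the 2 genes overlap on the mitochondrial DNA, and the sequence is shown because reads over the shared bases can belong to either gene. MT-ATP8 is at chrMT:8366-8572 on the plus strand and MT-ATP6 at chrMT:8527-9207 (GRCh38, sequence from GENCODE 29), and the capitals mark the 46 bases that they share, 22.2% of the 207 bases of MT-ATP8.
MT-ATP8: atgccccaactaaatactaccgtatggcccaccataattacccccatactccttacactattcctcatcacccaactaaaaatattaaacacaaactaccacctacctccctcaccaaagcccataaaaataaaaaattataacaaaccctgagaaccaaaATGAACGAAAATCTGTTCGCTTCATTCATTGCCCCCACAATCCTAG
MT-ND4L and MT-ND4 overlap in the same way by 7 bases, 2.36% of the 297 bases of MT-ND4L, and MT-ND4L, at 1238 FPKM in vehicle, was near MT-ND3 at 1321. How the authors' counting divided reads over shared bases is not given in the sources used here, so the level of MT-ATP8 is uncertain. The median of the mitochondrial subunits without MT-ATP8 was -0.76, an alternative chosen after seeing the data.

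With either agent alone the mitochondrial subunits moved little. All 13 were lower in histidine than in vehicle, against 45.3% of all genes tested, with a median log2 difference of -0.09. For MT-ND1, MT-ND5 and MT-ND6 the log2 read interval of histidine to vehicle included 0, at -0.06 to 0.05 for MT-ND6. All 13 were also lower in 6-MP than in vehicle, against 48.6% of all genes tested, with a median of -0.12. For MT-ATP8 the log2 read interval of 6-MP to vehicle included 0, at -0.96 to 0.15. In both comparisons 0 members differed by at least 1, where 1.33% and 1.18% of all genes tested did. MT-ATP8 was the only mitochondrial gene past 0.5 with a single agent, at -0.92 in histidine, where 1.93% of all genes were lower by that much. Against 6-MP alone, the combined library was lower in all 13 genes with a median of -0.67, and 10 of them by at least 0.5, where 36.8% of all genes were lower and 6.88% by that much. Against histidine alone it was lower in all 13 with a median of -0.70, and 12 of them by at least 0.5, where 38.8% were lower and 7.53% by that much. In both of these comparisons MT-ATP8 was the only mitochondrial member lower by at least 1, where 1.2% and 1.4% of all genes tested were. The 5 comparisons share libraries, so they are not independent of one another.

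The departure from additivity, the log2 difference of the combined library minus those of histidine and of 6-MP alone, was below 0 for all 13 mitochondrial subunits, with a median of -0.59 and a range from -0.79 for MT-ATP6 to -0.31 for MT-CO1. It was below 0 for 52 of 75 nuclear subunits, with a median of -0.20, and for 5075 of 12750 genes tested, with a median of 0.11. All departures rest on the same 4 libraries.

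**Figure D2:**
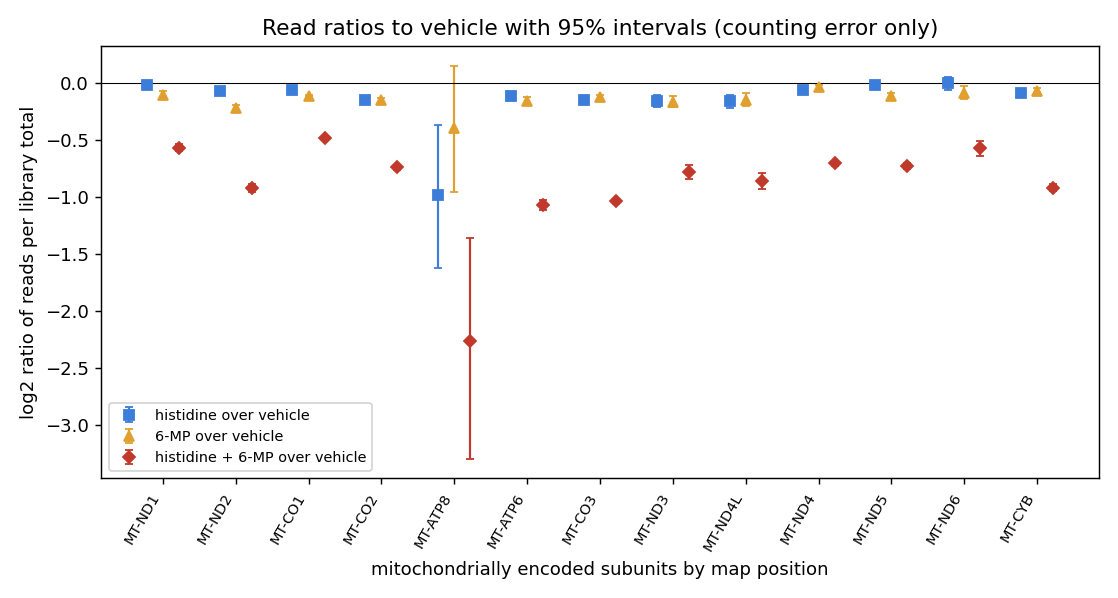
Log2 ratio of reads per library total to vehicle for the 13 mitochondrially encoded subunits in map order, with 1 marker for each treatment and bars for 95% intervals that cover counting error only. The histidine and 6-MP markers lie near 0 except for MT-ATP8, and the histidine + 6-MP markers lie between -2.26 and -0.48.

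The mitochondrial ribosomal RNAs and 1 transfer RNA of the minimum level differed in the other direction. MT-RNR2, the large ribosomal RNA, was at 2957 FPKM in vehicle, 2771 in histidine, 2712 in 6-MP and 3567 in histidine + 6-MP, a log2 difference of 0.27. MT-RNR1, the small ribosomal RNA, was at 384 FPKM in vehicle, 429 in histidine, 354 in 6-MP and 623 in histidine + 6-MP, a log2 difference of 0.69. Both were highest in the library where the subunit mRNAs were lowest, and 53.8% of all genes tested were also highest there. The median log2 difference of all genes tested from vehicle was 0.13. The median-ratio factors were 0.959 for vehicle and 1.14 for histidine + 6-MP, so that scaling would bring both differences down. The ribosomal RNAs together took 0.498% of reads in vehicle and 0.616% in histidine + 6-MP, whereas the 13 mRNAs took 2.909% and 1.799%. The transfer RNA MT-TP, which is encoded on the same strand as MT-ND6, was also higher in the combined library, with a log2 difference of 0.89 and 495 to 826 reads. The libraries were selected for poly(A), and how much of these RNAs that selection kept was not measured. Of the pseudogenes named as nuclear copies of mitochondrial subunit genes, 5 had a mean of at least 1 FPKM. MTATP6P1 differed by -1.005 and MTND2P28 by -0.86, close to MT-ATP6 and MT-ND2. The others, on fewer reads, did not follow their originals, with MTCO1P12 at 0.04 on 125 reads in vehicle and 116 in the combined library, MTCO1P28 at 0.44 on 27 and 40 reads, and MTND1P8 at 0.70 on 18 and 34 reads. With the median-ratio factors above, the difference of MTCO1P12 would fall below 0. Reads of copies and originals cannot be told apart where their sequence is the same.

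The nuclear-encoded subunits were lower on balance in the combined library, but by less and not uniformly. Their median log2 difference from vehicle was -0.15. Of 75, 50 were lower, against 36.4% of all genes tested, and 46 were below each of the other 3 libraries, against 28.8%. By at least 0.5, 5 of 75 were below each of the other 3 libraries, against 4.53%. Above each of them were 22, against 53.8%. A difference of at least 0.5 was seen for 14 lower genes, where 7.37% of all genes were lower by that much, and for 4 higher genes, where 19.7% were higher by that much. At a difference of at least 1, 0 of the 75 were lower or higher, where 1.51% of all genes were lower and 5.01% higher by that much. Under median-ratio scaling 63 of 75 were lower, against 56.7% of all genes tested, and 27 were lower and 1 higher by at least 0.5, against 15% and 11.5%. Under that scaling 2 nuclear subunits, ATP5MC1 at -1.12 and NDUFS5 at -1.03, were lower by at least 1. The mitochondrial minus the nuclear median was -0.63 on the log2 scale in the combined library, -0.07 in histidine and -0.12 in 6-MP, each against vehicle. The nuclear subunits took 0.788% of reads in vehicle, 0.775% in histidine, 0.789% in 6-MP and 0.652% in histidine + 6-MP.

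**Figure D3:**
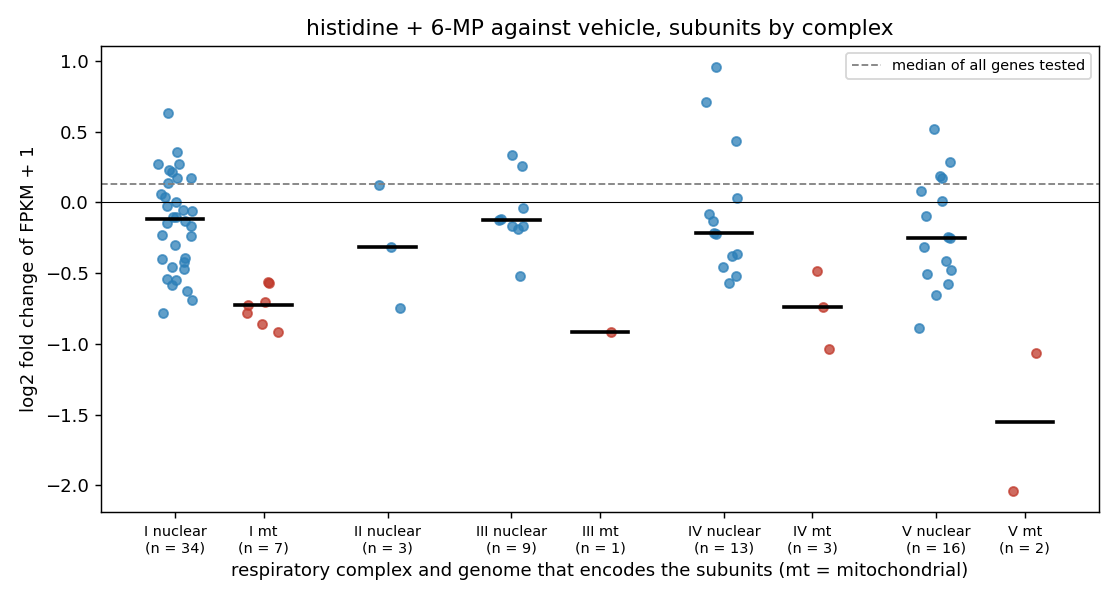
Log2 fold change of FPKM + 1 for histidine + 6-MP against vehicle, with 1 point per subunit gene, grouped by complex and by the genome that encodes it, black bars for medians and a dashed line for the median of all genes tested, 0.13. In every complex with both kinds of subunit the mitochondrial median lies below the nuclear one.

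By complex, the median log2 difference of the combined library from vehicle in complex I was -0.73 over 7 mitochondrial and -0.12 over 34 nuclear genes. In complex III it was -0.92 for the single mitochondrial gene and -0.12 over 9 nuclear genes. In complex IV it was -0.74 over 3 mitochondrial and -0.22 over 13 nuclear genes, and in complex V -1.55 over 2 mitochondrial and -0.25 over 16 nuclear genes. The -1.55 is the midpoint of MT-ATP8, on 12 reads in the combined library, and MT-ATP6, which alone was at -1.07. Complex II, which has nuclear subunits only, had a median of -0.32 over 3 genes. The nuclear medians of the 5 complexes thus lay between -0.32 and -0.12, and the mitochondrial medians between -1.55 and -0.73, or between -1.07 and -0.73 with MT-ATP6 alone for complex V. On summed FPKM, too, the mitochondrial subunits were lower than the nuclear ones in each complex that has both, while the order of the complexes differed from that of the medians. The summed level in the combined library was 0.602 of vehicle for mitochondrial and 0.741 for nuclear subunits of complex I. It was 0.530 and 0.866 in complex III, 0.614 and 0.857 in complex IV, and 0.473 and 0.741 in complex V, and 0.744 for complex II. For 6-MP alone the nuclear median of complex III was 0.11, the only nuclear complex median above 0 in either single treatment.

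Among nuclear subunits of complex I, 22 of 34 were lower and 12 higher in the combined library, where 36.4% of all genes were lower. By at least 0.5, 6 were lower and 1 higher, where 7.37% and 19.7% of all genes were. NDUFS5, an accessory subunit on the intermembrane space side, was at 352 FPKM in vehicle, 329 in histidine, 325 in 6-MP and 204 in histidine + 6-MP, a log2 difference of -0.78. NDUFS6, a zinc-binding accessory subunit of the NADH-oxidizing arm, was at 122 FPKM in vehicle, 110.2 in histidine, 115 in 6-MP and 75.3 in histidine + 6-MP, a difference of -0.69. NDUFA3, an accessory subunit, was at 13.2 FPKM in vehicle, 11.8 in histidine, 11.5 in 6-MP and 8.21 in histidine + 6-MP, a difference of -0.63. In each of these the combined library was the lowest and the other 3 lay close together. The others lower by at least 0.5 were NDUFB4 at -0.59, NDUFA1 at -0.55 and NDUFB6 at -0.54. At the other end, NDUFA13, also known as GRIM-19, was at 0.98 FPKM in vehicle, 1.45 in histidine, 1.11 in 6-MP and 2.06 in histidine + 6-MP, a difference of 0.63 on 38 to 72 reads. NDUFS3, a core subunit near the quinone site, differed by 0.35 on 72 reads in vehicle and 99 in the combined library. NDUFA6 was at 2.13 FPKM in vehicle, 1.63 in histidine, 0.73 in 6-MP and 2.77 in histidine + 6-MP. Its combined library was 1.13 above 6-MP on the log2 scale, the only nuclear member past 1 in that comparison, where 4.82% of all genes were higher by that much, but it was only 0.27 above vehicle and the low value was that of 6-MP, with 15 reads. In 6-MP against vehicle it differed by -0.86, the only nuclear member lower by at least 0.5, where 2.44% of all genes were.

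Nuclear-encoded core subunits of complex I oxidize NADH and carry electrons to quinone, and those given here were chosen after their values were seen. NDUFV1, which binds NADH, was at 44.5 FPKM in vehicle, 45.8 in histidine, 42.1 in 6-MP and 46.4 in histidine + 6-MP, a log2 difference of 0.06. NDUFS1 differed by -0.17, NDUFS8 by 0.0047, NDUFV2 by 0.27 on 34 and 44 reads, and NDUFS3 by the value above. NDUFS7 was below the minimum level. Under median-ratio scaling NDUFV1 was at -0.18 and NDUFS8 at -0.23, so that their direction turned.

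Complex II, succinate dehydrogenase, links the chain to the tricarboxylic acid (TCA) cycle. SDHB, its iron-sulfur subunit, was at 48.0 FPKM in vehicle, 42.1 in histidine, 46.5 in 6-MP and 28.2 in histidine + 6-MP, a log2 difference of -0.75. SDHC, a membrane anchor, was at 42.75 FPKM in vehicle, 40.3 in histidine, 41.9 in 6-MP and 34.1 in histidine + 6-MP, a difference of -0.32. SDHD, the other anchor, was at 14.1 FPKM in vehicle, 15.0 in histidine, 14.6 in 6-MP and 15.5 in histidine + 6-MP, a difference of 0.12. The 3 subunits of 1 complex thus differed from one another in the combined library, and the log2 read intervals against vehicle were -0.89 to -0.65 for SDHB and -0.04 to 0.30 for SDHD. SDHD turned to -0.10 under median-ratio scaling. SDHA, the flavoprotein subunit, was below the minimum level, with a mean of 0.842 FPKM, and GENCODE 29 lists 3 pseudogenes named after it, so its level is uncertain.

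In complex III, 7 of 9 nuclear subunits were lower and 1 by at least 0.5, where 36.4% and 7.37% of all genes were. UQCRC1, a core protein on the matrix side, was at 48.4 FPKM in vehicle, 45.9 in histidine, 48.4 in 6-MP and 33.4 in histidine + 6-MP, a log2 difference of -0.52. UQCRH, the hinge protein that helps bind cytochrome c1, differed by -0.19, and UQCRFS1, the Rieske iron-sulfur protein, by -0.16. UQCRB, at 6.57 FPKM in vehicle, 6.47 in histidine, 6.78 in 6-MP and 8.56 in histidine + 6-MP, was higher by 0.34, UQCRHL, a hinge-like gene, was higher by 0.26, and UQCR10 differed by -0.04. The log2 read interval included 0 for UQCR10, at -0.61 to 0.50, and for UQCRHL, at -0.0032 to 0.61. UQCRHL resembles UQCRH closely, and how reads were divided between them is not given in the sources used here.

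In complex IV, 9 of 13 nuclear subunits were lower, where 36.4% of all genes were. COX7B was at 39.4 FPKM in vehicle, 37.0 in histidine, 39.9 in 6-MP and 26.2 in histidine + 6-MP, a log2 difference of -0.57, and COX5B, a zinc-binding subunit, differed by -0.52 and COX6C by -0.46. COX7A2L, which helps to join complexes III and IV into supercomplexes, was at 18.1 FPKM in vehicle, 17.7 in histidine, 19.1 in 6-MP and 30.3 in histidine + 6-MP. Its log2 difference was 0.71 with a read interval from 0.65 to 0.84, and it rested on 1452 reads in vehicle and 2188 in the combined library. COX8C, an isoform known from testis, was at 2.32 FPKM in vehicle, 1.55 in histidine, 2.65 in 6-MP and 5.44 in histidine + 6-MP, a difference of 0.95 on 18 to 38 reads. Against histidine alone, on 13 reads, COX8C was 1.34 higher, the only nuclear member past 1 in that comparison, where 4.15% of all genes were higher by that much. COX8A, the common isoform of the same subunit, was at 13.6 FPKM in vehicle, 13.3 in histidine, 12.7 in 6-MP and 18.7 in histidine + 6-MP, a difference of 0.43. COX7A2L and COX8C were the only nuclear subunits above each of the other 3 libraries by at least 0.5, where 13% of all genes tested were.

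Complex IV has pairs of common and tissue-restricted isoforms. COX4I1, the common form of the regulatory subunit IV, was at 86.4 FPKM in vehicle and 78.9 in the combined library, a log2 difference of -0.13. COX7A1, the heart and muscle form, had 1 read in each of vehicle, histidine and 6-MP and 4 reads in the combined library, below the minimum level. COX7A2, the common form, was at 48.5 FPKM in vehicle and 41.3 in the combined library, a difference of -0.23. COX6A1, the liver form, differed by 0.03 at 2.76 FPKM in vehicle, and by -0.15 under median-ratio scaling. COX6B1 differed by -0.37, and COX6B2, the testis form, had a mean of 0.0308 FPKM, also below it. The isoforms COX4I2 and COX6A2 were not analysed here. NDUFA4, now counted as a subunit of complex IV, differed by -0.22.

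In complex V, 10 of 16 nuclear subunits were lower, 4 of them by at least 0.5, where 36.4% and 7.37% of all genes were. ATP5MC1, 1 of 3 genes for the same c subunit of the proton-driven ring, had the lowest value of all nuclear subunits. It was at 31.0 FPKM in vehicle, 30.7 in histidine, 31.0 in 6-MP and 16.3 in histidine + 6-MP, a log2 difference of -0.89 with a read interval from -1.08 to -0.78. The first 3 libraries lay within 0.013 of one another on the log2 scale. ATP5MC3 was at 64.3 FPKM in vehicle and 45.9 in the combined library, a difference of -0.48, and ATP5MC2 was at 57.6 FPKM in vehicle, 54.7 in histidine, 56.6 in 6-MP and 65.2 in histidine + 6-MP, a difference of 0.18. The 3 genes that yield the same mature protein thus differed, and the log2 read interval was 0.11 to 0.25 for ATP5MC2 and -0.56 to -0.41 for ATP5MC3. Under median-ratio scaling ATP5MC2 was at -0.06, so its direction turned, while the order of the 3 genes stayed.

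ATP5F1B, the catalytic beta subunit and the most abundant nuclear subunit per length, was at 586 FPKM in vehicle, 577 in histidine, 592 in 6-MP and 372 in histidine + 6-MP, a log2 difference of -0.65. ATP5F1A, the alpha subunit, differed by -0.31, and ATP5F1C, the gamma subunit of the rotor, by -0.25. ATP5MF differed by -0.58 on 204 and 114 reads, and ATP5MK by -0.50. ATP5F1D, the delta subunit, was at 23.4 FPKM in vehicle, 32.1 in histidine, 37.1 in 6-MP and 34.0 in histidine + 6-MP, so that the vehicle library was the low one and the 3 treated libraries lay together. It was the only nuclear subunit higher by at least 0.5 in 6-MP alone, at 0.64, where 2.28% of all genes were. ATP5MG differed by 0.29 and ATP5F1E, the epsilon subunit, by 0.19 in the combined library, and the latter turned to -0.04 under median-ratio scaling.

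The 11 members below the minimum level had mean FPKM between 0.0199 for COX7B2 and 0.842 for SDHA. Besides these, they were NDUFA7, NDUFB8, NDUFS7, COX6B2, COX7A1, ATP5ME, ATP5IF1 (the inhibitor of ATP synthase), ATP5MGL and the read-through gene ATP5MF-PTCD1. Of the 86 nuclear members, 41 had a mean FPKM under 10, including subunits that every assembled complex needs. A low FPKM here is thus no measure of the amount of the complex. FPKM also depends on the gene length used. In vehicle, UQCRB had 1185 reads over 12600 bases and 6.57 FPKM, and NDUFB7 had 1142 reads over 535 bases and 149 FPKM. A pseudogene named after the member is listed in GENCODE 29 for 15 of the 41 members under 10 FPKM and for 29 of the other 45. Reads shared with such copies depend on the counting.

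The size of the nuclear difference varied with the level of the gene. Over the 75 nuclear subunits, Spearman's rho between mean FPKM and the log2 difference of the combined library from vehicle was -0.53, and over 9909 other protein-coding genes it was -0.31. Both are descriptions across genes of the same 2 libraries. The 1 added to FPKM shrinks the differences of low genes. NDUFA13 was at 0.63 on that scale and 1.07 as a log2 read ratio, and NDUFA11 at -0.23 and -0.45. FPKM also depends on the gene length used. The part of both in these values was not tested. Between 1 and 10 FPKM the median was -0.05 over 30 nuclear subunits and 0.20 over other protein-coding genes. Between 10 and 50 FPKM it was -0.19 over 24 subunits and 0.03 over the others, and between 50 and 200 FPKM it was -0.39 over 19 subunits and -0.21 over the others. At 200 FPKM or more it was -0.72 over 2 subunits, ATP5F1B and NDUFS5, and -0.03 over 87 others. In each of these level classes the median of the subunits was below that of the other genes. Lower by at least 0.5 were 1 of 30 subunits and 3.13% of the others between 1 and 10 FPKM. Between 10 and 50 FPKM they were 6 of 24 and 7.7%, between 50 and 200 FPKM 5 of 19 and 20.5%, and at 200 FPKM or more 2 of 2 and 16.1%. The 5 nuclear-encoded protein-coding genes with a mean of at least 1000 FPKM had a median difference of 0.09, and 2 of these were lower. Every mitochondrial subunit except MT-ATP8 and MT-ND6 was at or above that level.

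**Figure D4:**
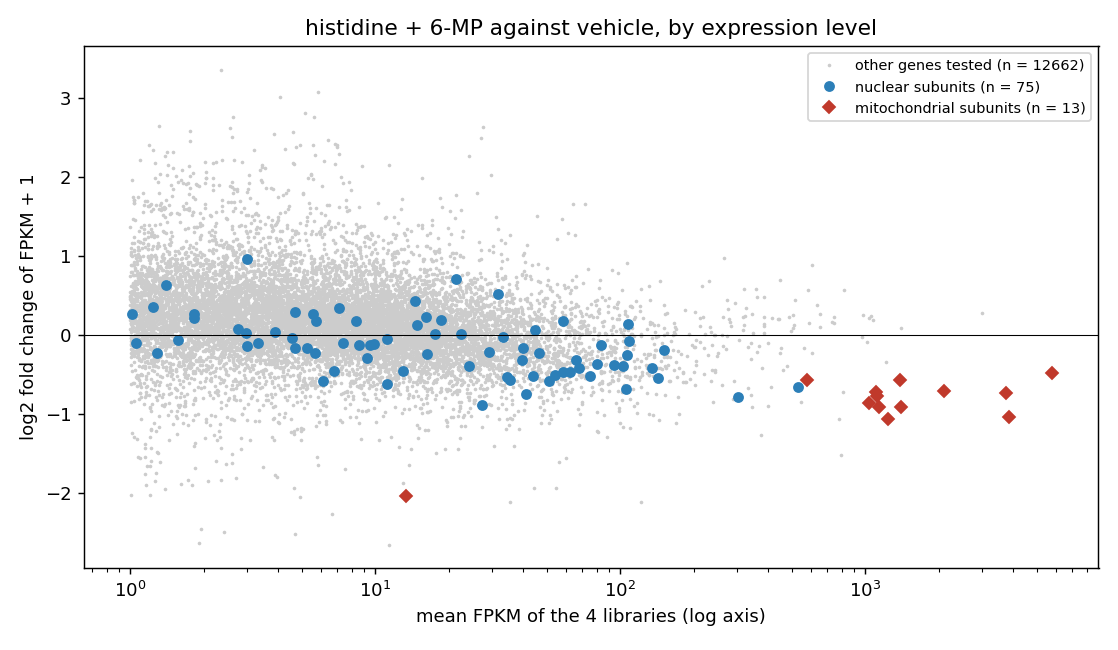
Log2 fold change of FPKM + 1 for histidine + 6-MP against vehicle by mean FPKM of the 4 libraries (log axis), with grey points for other genes tested, blue points for nuclear and red diamonds for mitochondrially encoded subunits. The nuclear subunits run downward with level, and 12 of the 13 mitochondrial subunits lie at the right, all below 0.

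Promoter sequence was examined for the nuclear subunits because factors known to act on respiratory genes bind there. RefSeq windows of 300 bases, from 250 before to 50 after the transcription start (GRCh38.p14), were found for 68 of 86 nuclear members by symbol. The letters GCGCATGCG, a form of the NRF1 site, were in the windows of 9 of the 60 members of the minimum level that had one, 15% on either strand, and in 4.73% of protein-coding genes of that level. The letters CCGGAAG, a form of the ETS site bound by GABPA, were in 33.3% of the members and 24.6% of protein-coding genes. The YY1 letters AAGATGGCG were in 10% and 5.37%, the E-box letters CACGTG in 6.67% and 12.9%, and the SP1 letters GGGGCGGGG in 16.7% and 33.5%. Longer forms of the NRF1 and YY1 letters, searched first, were each in 6.67% of the members, and in 3.02% and 2.77% of protein-coding genes. Among the 14 members lower by at least 0.5, 11 had a window, of which 4 held the ETS letters, 2 the NRF1 letters and 2 the YY1 letters. Among the 25 members that were higher, 20 had a window, of which 6 held the ETS letters, 4 the NRF1 letters and 1 the YY1 letters. The letters AAG at the end of the ETS form can be the first letters of the YY1 form. A match of letters is not a bound site.

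The 250 bases before the start are shown for the lowest nuclear subunit (ATP5MC1, at chr17:48892537-48892786 on the plus strand), for the lowest of complex II (SDHB, at chr1:17054033-17054282 on the minus strand), for a member among the 14 lower ones whose window holds the NRF1 letters on both strands (NDUFB4, at chr3:120596086-120596335 on the plus strand) and for COX8A, which was higher (chr11:63974370-63974619 on the plus strand). Capitals mark any of the searched letters on either strand.
ATP5MC1: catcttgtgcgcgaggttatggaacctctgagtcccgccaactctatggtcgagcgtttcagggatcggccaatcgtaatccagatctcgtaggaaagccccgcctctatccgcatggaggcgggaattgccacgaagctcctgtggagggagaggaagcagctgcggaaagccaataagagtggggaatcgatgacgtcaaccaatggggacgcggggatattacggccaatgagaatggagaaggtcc
SDHB: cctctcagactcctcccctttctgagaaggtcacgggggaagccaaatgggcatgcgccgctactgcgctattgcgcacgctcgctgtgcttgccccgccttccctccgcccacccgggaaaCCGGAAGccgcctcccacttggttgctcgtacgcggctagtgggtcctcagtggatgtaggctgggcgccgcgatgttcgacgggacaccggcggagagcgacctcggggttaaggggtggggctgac
NDUFB4: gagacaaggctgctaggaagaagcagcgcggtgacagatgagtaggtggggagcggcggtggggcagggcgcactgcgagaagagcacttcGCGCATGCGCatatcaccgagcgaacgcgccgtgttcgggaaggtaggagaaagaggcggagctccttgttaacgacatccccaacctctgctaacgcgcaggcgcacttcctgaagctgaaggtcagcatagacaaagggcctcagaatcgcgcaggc
COX8A: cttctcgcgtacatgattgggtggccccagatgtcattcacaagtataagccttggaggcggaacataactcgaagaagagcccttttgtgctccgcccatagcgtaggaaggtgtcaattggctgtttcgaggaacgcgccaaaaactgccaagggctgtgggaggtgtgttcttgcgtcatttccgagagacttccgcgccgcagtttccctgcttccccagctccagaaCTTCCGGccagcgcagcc
SDHB and COX8A differed in opposite directions and both held the ETS letters in these bases, and ATP5MC1 held 0 of the searched letters before its start. With the 50 bases after the start, which are in the counts but not shown, the window of ATP5MC1 also held the E-box letters and that of SDHB the YY1 letters.

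Genes that serve the respiratory chain without being members gave a mixed pattern in the combined library against vehicle. Counts of lower genes in these lists stand beside 36.4% of all genes tested that were lower, or 56.7% under median-ratio scaling. Of 7 tested regulators of respiratory genes, 7 were lower, with a median of -0.38, and 2 were lower by at least 1, where 1.51% of all genes were. These were PPRC1, a coactivator of NRF1, at 26.85 FPKM in vehicle, 25.9 in histidine, 24.98 in 6-MP and 11.5 in histidine + 6-MP, a log2 difference of -1.16, and PPARGC1B, a PGC-1 family coactivator, at -1.10. The least lowered were ESRRA at -0.19 and GABPA at -0.24. Of 22 genes for mitochondrial transcription and RNA handling, 17 were lower with a median of -0.22, against 36.4% of all genes. The lowest were TBRG4, also called FASTKD4, at -0.75 and PNPT1, a mitochondrial RNA-degrading enzyme, at -0.72, and the highest were MTERF2 at 0.70 and MTERF4 at 0.49. POLRMT, the mitochondrial RNA polymerase, differed by -0.42 and the transcription factor TFAM by -0.10, and both were chosen after their values were seen.

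Of 6 genes for mitochondrial DNA replication, 4 were lower, with a median of -0.23. TWNK, the replicative helicase, was at 18.6 FPKM in vehicle, 18.8 in histidine, 18.5 in 6-MP and 8.91 in histidine + 6-MP, a log2 difference of -0.98, and POLG, the DNA polymerase, differed by -0.37. MGME1, an exonuclease, at 0.43 and TOP1MT, a topoisomerase, at 0.07 were the highest, and TOP1MT turned to -0.13 under median-ratio scaling. The 3 subunits or carriers that the symbol rule left out were all lower, CYCS (cytochrome c) at -0.69, NDUFAB1 (the acyl carrier protein of complex I) at -0.62 and CYC1 (cytochrome c1) at -0.38. Of 13 TCA cycle genes, 12 were lower with a median of -0.23, against 36.4% of all genes. SUCLG2 differed by -0.51, SUCLG1 by -0.03, which turned to 0.0031 under TPM scaling, and DLST by 0.36.

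Assembly factors differed in both directions, and the median of complex III turned to 0.03 under TPM scaling and that of complex IV to -0.22 under median-ratio scaling. For complex I, 10 of 14 were lower with a median of -0.16, from NDUFAF2 at -0.76 and NDUFAF3 at -0.59 to NDUFAF8 at 0.63 and NDUFAF6 at 0.86. NDUFAF8 was the only gene of these lists past 1 with a single agent, at 10.1 FPKM in vehicle, 21.5 in histidine, 20.1 in 6-MP and 16.2 in histidine + 6-MP, so its vehicle library was the low one. For complex II, 1 of 4 was lower with a median of 0.35, from SDHAF3 at -0.39 to SDHAF2 at 0.44 and SDHAF1 at 0.45, while SDHAF4 was at 0.26. For complex III, 3 of 5 tested were lower with a median of -0.0014, from BCS1L at -0.27 and LYRM7 at -0.10 to UQCC2 at 0.22 and UQCC1 at 0.42. For complex IV, 7 of 14 tested were lower with a median of 0.0044, from COA7 at -0.72 and SCO1, a copper carrier, at -0.49 to SURF1 at 0.36 and COA5 at 0.51. For ATP synthase, TMEM70 differed by -0.22, ATPAF1 by -0.09 and ATPAF2 by -0.0081. With histidine alone the medians of these 10 lists lay between -0.05 and 0.07, and with 6-MP alone between -0.11 and 0.03.

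**Figure D5:**
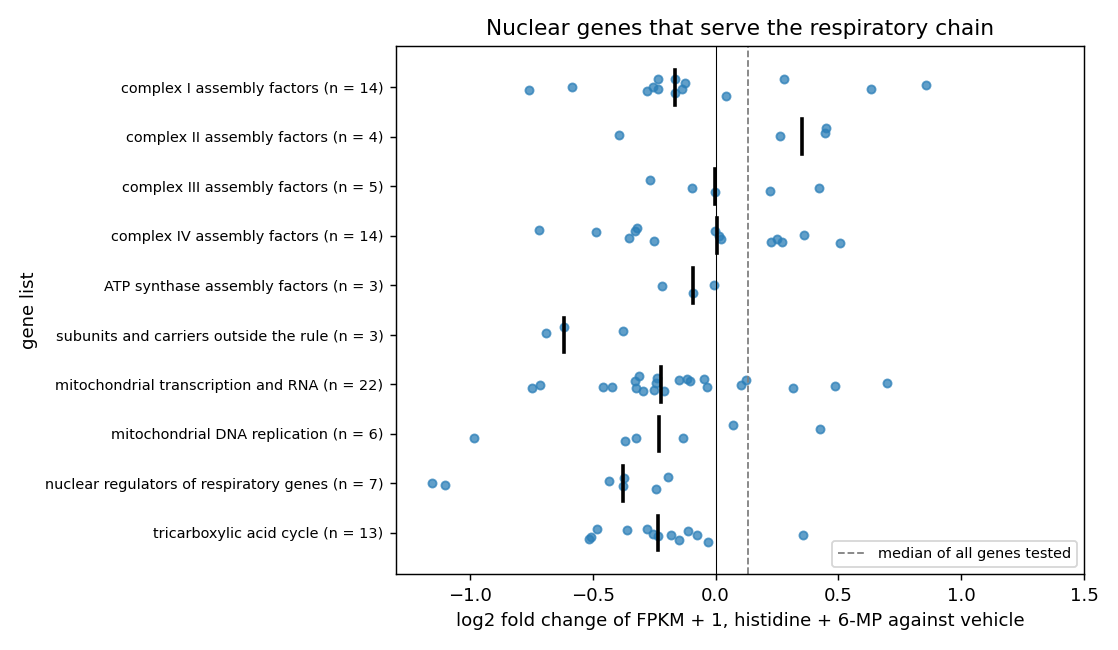
Log2 fold change of FPKM + 1 for histidine + 6-MP against vehicle for tested nuclear genes outside the symbol rule, with 1 point per gene, black bars for list medians and a dashed line for the median of all genes tested, 0.13. Of 10 list medians, 8 lie below 0 and those for complex II and complex IV assembly factors lie above it.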

How the data were processed

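RNA-seq of Reh-6-MPR cells covered 4 libraries, 1 per group as labelled. The submitters' processing notes name Trimmomatic, HISAT2, Cufflinks and HTSeq on GRCh38 (hg38). The authors deposited FPKM values per gene, with symbol, biotype and position. Reads were recovered from the steps of FPKM, which came out whole for all 29833 genes. For 1696 genes the shortest length that gave whole reads was multiplied to come near the GENCODE 29 length, and this rule was set with the library denominators in view, so the 99.9949% to 100.015% of each denominator that the reads sum to is not an independent check. Intervals are 95% exact (Clopper-Pearson, conditional on the sum for ratios) and cover counting error only. Log2 differences are of FPKM + 1, which understates low genes. Counts used thresholds of 1 and 0.5. No count model such as the DESeq2 of the authors was fitted, for lack of replicates.

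Named were all mitochondrial members, the 3 highest and 3 lowest nuclear members per complex, members past 1 in any comparison, isoform pairs, and the 2 highest and 2 lowest of each list, all by the combined library against vehicle. Other members are named for their role, and some genes are not reported here. Members and lists were chosen with earlier results of these data known. A gene with several promoter windows held a motif if any window did. Alternatives were a pseudocount of 0.1, no filter, a minimum of 5 FPKM, median-ratio and TPM scaling, equal totals over nuclear genes, a threshold of 0.5, core members only and NDUFA4 counted in complex I. Read recovery and fold changes were tested on simulated data built with the annotated lengths that the recovery was given. That test does not cover genes whose recovered length differs from the annotated one, such as SDHC (951 and 14160 bases). Scripts ran in Python 3.11.15 with matplotlib 3.10.9, scipy 1.17.1, pandas 2.3.3 and numpy 2.4.6.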

Additional observations from a re-analysis of the deposited data

How the results depend on the processing

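No paired analysis was possible because each group has 1 library, which also left no replicate to leave out. Of 208 values recomputed for 96 results, 158 stayed within a tolerance, 50 moved beyond it and 0 turned direction beyond it. The tolerance was 1.5 times for counts and the counting error of the pooled reads for shares and sums. For medians it was the median half-width of single-gene read intervals, 0.15 for nuclear subunits in the combination against vehicle. It was not the counting error of a median. The nuclear median of that comparison, -0.15 and -0.24 with a minimum of 5 FPKM, thus counted as unmoved. A median smaller in size than its tolerance could not count as turned, such as the nuclear median for 6-MP, -0.0013 and 0.01 under TPM scaling. With 1 library per group, spread between cultures is unknown, and with few reads (12 for MT-ATP8 in the combined library) counting error alone is wide.

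The number of members past a log2 difference of 1 was 0 for histidine and 0 for 6-MP against vehicle, 3 for the combination against vehicle, 2 against 6-MP and 2 against histidine. At a threshold of 0.5 it was 1, 2, 30, 25 and 24 of the 88 members tested. Of the 12750 genes tested, 246 were lower and 374 higher by that much for histidine, and 311 and 291 for 6-MP. For the combination, 940 were lower and 2511 higher against vehicle, 877 and 2464 against 6-MP, and 960 and 2274 against histidine. With a pseudocount of 0.1 the number of members past 1 was 1 for 6-MP and 5 for the combination against vehicle. With a minimum of 5 FPKM it was 1 against 6-MP and 1 against histidine. With median-ratio scaling it was 9, 5 and 7 for the combination against vehicle, 6-MP and histidine, which lowers all genes of that library by construction. Under that scaling 337 of the 12750 genes tested were lower by at least 1 in the combination against vehicle. No share of all genes is given under it for the comparisons with 6-MP and with histidine.

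Median-ratio scaling gave a nuclear median of -0.35 and a mitochondrial median of -1.02 against vehicle, -0.44 and -0.91 against 6-MP, and -0.31 and -0.90 against histidine. It gave a mitochondrial median of -0.13 for histidine against vehicle. TPM scaling gave a mitochondrial median of -0.74 for the combination against vehicle. As a share of the FPKM total, the mitochondrial subunits took 11.4% in vehicle, 10.8% in histidine, 10.6% in 6-MP and 6.99% in the combination.

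Summed FPKM relative to vehicle for the combination with median-ratio scaling was 0.626, 0.628, 0.732, 0.724 and 0.626 for nuclear subunits of complexes I to V in order, and 0.508, 0.447, 0.518 and 0.400 for mitochondrial subunits of complexes I, III, IV and V. With TPM scaling it was 0.760, 0.879 and 0.760 for nuclear subunits of complexes I, IV and V, and 0.617, 0.543 and 0.629 for mitochondrial subunits of complexes I, III and IV. For histidine with median-ratio scaling it was 0.940, 0.947 and 0.966 for nuclear subunits of complexes I, IV and V, and 0.924, 0.912, 0.899 and 0.894 for mitochondrial subunits of complexes I, III, IV and V. With TPM scaling it was 0.959 and 0.932 for mitochondrial subunits of complexes I and IV in histidine, and 0.932 and 0.925 in 6-MP. The mitochondrial minus nuclear median of the combination against vehicle lay between -0.67 and -0.54 over the alternatives. Leaving out MT-ATP8, the alternative added after seeing the data, was run for the median of all mitochondrial subunits. It did not move that median beyond the tolerance in the 5 comparisons. The complex V median, of 2 genes, becomes the value of MT-ATP6, -1.07 for the combination and -0.11 for histidine in place of -1.55 and -0.52.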
